A study of Mus musculus with 12 samples.

Results

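Integrins are cell surface receptors made of 1 α and 1 β subunit, and the transcripts of 10 subunits used by leukocytes were followed here. They were Itgal, Itgam, Itgax and Itgb2, then Itga1, Itga2, Itga4 and Itgb1, then Itgae and Itgb7. They were chosen by gene symbol, and all 10 were found among the 55487 features of the deposited expression table and were among the 12364 genes tested. RNA-seq had been run on 12 samples of sorted natural killer (NK) cells, lymphocytes that kill infected or transformed cells, from mice of the strain B6.129S4-Ifngtm3.1Lky/J with the genotype given as mut/mut. This allele reports interferon gamma expression as yellow fluorescent protein (YFP), and the control samples carry it too. The cells are described as HD IL-15 NK cells in every group. There were 3 groups of 4 samples, labelled f2, m2, m3 and m4 in each (the titles add F to f2 and M to the others). They were unstimulated cells, and reporter-negative (YFP-) and reporter-positive (YFP+) cells after 6 h of stimulation with an antibody against NK1.1, an activating receptor on mouse NK cells. The labels do not say whether the samples of a group came from separate mice, so each p-value measures the spread between these samples, which may be technical.

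An integrin binds its ligand firmly only after signals from inside the cell have changed its shape, and the β subunit tail is where talin and kindlin bind to bring this about. The β2 subunit (Itgb2, CD18) pairs with αL (Itgal, CD11a) to form LFA-1, which holds NK cells to targets that carry ICAM-1, and with αM (Itgam, CD11b) and αX (Itgax, CD11c) to form the complement receptors Mac-1 and p150,95. The β1 subunit (Itgb1, CD29) pairs with α1 (Itga1, CD49a) and α2 (Itga2, CD49b, the DX5 antigen of mouse NK cells) to bind collagen, and with α4 (Itga4, CD49d) to bind VCAM-1 and fibronectin, while the β7 subunit (Itgb7) pairs with α4 to bind MAdCAM-1 and with αE (Itgae, CD103) to bind E-cadherin.

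Levels are given in CPM, the reads of a gene as a share of its library total, on a scale where the total is 1 M (mega). Library totals ran from 32.1 to 54.2 M reads, so that 3 reads, taken as the floor, stood for 0.0553 to 0.0933 CPM. Reads on rRNA-like features took 27.4 to 35.3% of unstimulated libraries, 15.9 to 30.3% of YFP- libraries and 13.7 to 29.8% of YFP+ libraries. The 10 NK cell markers summed to 18681 to 22541 CPM in unstimulated, 21289 to 25248 CPM in YFP- and 31215 to 42427 CPM in YFP+ samples. Gzmb, which encodes granzyme B, had means of 6165, 12849 and 24088 CPM in these groups and made up most of the sum in YFP+ samples. Ncr1, a receptor largely restricted to NK cells and related innate lymphocytes, had 247, 222 and 123 CPM, and Klrb1c had 308, 75.3 and 6.50 CPM. Gzma, Klrd1 and Eomes also had lower means in YFP+ than in unstimulated samples, while Klrk1, Nkg7, Prf1 and Tbx21 had higher ones. Ifng, the gene that carries the reporter, was higher in YFP+ than in YFP- samples (log2 difference 2.86, limma adjusted p = 7.6e-08). The samples are bulk RNA, so fewer cells of a type and less RNA per cell cannot be told apart.

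Differences are log2 fold changes from limma, fitted to all 12 samples, with p-values adjusted over all 12364 genes by the Benjamini-Hochberg method, and a gene was called at an adjusted p under 0.05. Background rates were high. For YFP+ against YFP- samples limma called 21.8% of all genes (3.28% higher and 18.5% lower), for YFP- against unstimulated 51.1% (30.2% higher and 20.9% lower), and for YFP+ against unstimulated 60.8% (27.5% higher and 33.3% lower). The median log2 difference over all genes was -0.19, 0.14 and -0.03 in the same order, and trimmed-mean scaling moved it to 0.00, 0.02 and 0.05. Scaling also moved the split of the calls: 15.1% of those for YFP+ against YFP- were higher, against 41.0% after trimmed-mean scaling, 44.9% after quantile normalization, 44.0% in the voom fit, 49.5% after a correction for GC content and length, and 50.2% when samples were centred on their medians. For YFP- against unstimulated, 59.1% of the calls were higher, and 47.1% when rRNA-like features were left out of the totals. The 3 comparisons share samples and are not independent of each other.

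Reporter-positive cells had lower levels of 7 of the 10 integrin transcripts than unstimulated cells, and of 4 than reporter-negative cells. The 4 called against YFP- samples were Itga4 (2.47-fold), Itgb7 (2.30-fold), Itgax (1.83-fold) and Itga1 (1.74-fold). They were 40.0% of the members, against 21.8% of all genes called and 18.5% called lower. The groups did not overlap for 3 of the 10, against 22.1% of all genes. The members' median log2 difference was -0.71, beside -0.19 over all genes. Without the samples labelled f2, 2 members were called, Itga4 and Itgax. Against unstimulated samples, YFP+ samples had 7 of the 10 members called, all lower. This was near the 60.8% of all genes called, of which a part, 33.3% of all genes, was called lower. The members' median log2 difference was -0.86 there, beside -0.03 over all genes. The groups did not overlap for 7 members, against 54.7% of all genes. YFP- samples differed from unstimulated samples in 5 called members, of which Itga4 was higher and Itgam, Itga2, Itga1 and Itgb1 were lower. This was 50.0% of the members, near the 51.1% of all genes called. In that comparison 5 members had groups that did not overlap, against 52.7% of all genes, and the median was -0.40 beside 0.14. Its count of called members was 3 without the samples labelled f2 and 3 without those labelled m4.

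**Figure D1:**
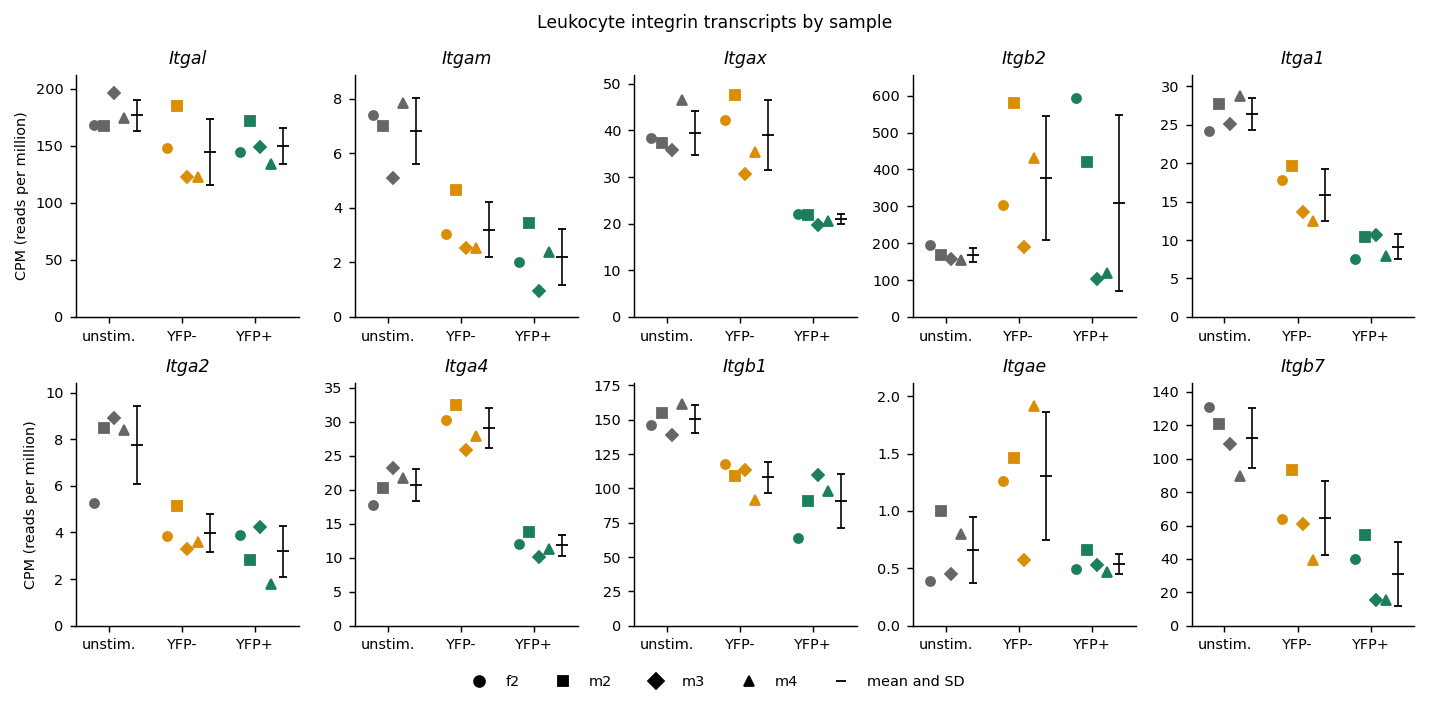
CPM of each of the 10 transcripts in unstimulated, YFP- and YFP+ samples, with a marker shape for each sample label and the mean with its SD (n = 4) at the right of each group. Itgax and Itga4 have all 4 YFP+ samples below all other samples, while Itgb2 runs from 103 to 594 CPM within the YFP+ group alone.

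Levels per kilobase use the joined exons of all annotated transcripts of a gene, from 2770 bases for Itgb7 to 18599 for Itga1. Comparisons between genes on this scale therefore depend on the annotation. Per kilobase of exon, Itgb2 stood first in each group. Its mean was 55.4 ± 6.27 CPM per kb in the unstimulated group, 123 ± 54.8 CPM per kb in the YFP- group and 101 ± 78.4 CPM per kb in the YFP+ group (SD, n = 4). In unstimulated samples Itgb7 (40.7 CPM per kb), Itgb1 (36.9) and Itgal (26.9) came next, and the ranges of Itgb7 and Itgb1 overlapped. Itgax followed at 8.23 CPM per kb, and Itga4, Itga1, Itgam and Itga2 lay between 1.09 and 1.49 with ranges that overlapped from each to the next. Itgae was last in every group, with 0.144, 0.285 and 0.117 CPM per kb in unstimulated, YFP- and YFP+ samples. In YFP+ samples Itgb7, at 11.3 CPM per kb, came after Itgal (22.8) and Itgb1 (22.2), and its range (5.47 to 19.5) overlapped with that of Itgb1 but not with that of Itgal.

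Itgal encodes αL, the ligand-binding partner of β2 in LFA-1, and lies on chromosome 7 at 127296260 to 127335138 (plus strand, GRCm38). Its level was 168, 167, 196 and 175 CPM in unstimulated samples f2, m2, m3 and m4. The YFP- samples had 148, 185, 122 and 123 CPM, and the YFP+ samples had 144, 172, 149 and 134 CPM. The groups overlapped in all 3 comparisons, and the stimulated samples labelled m2 were the highest of their groups. For YFP+ against YFP- samples Itgal had a log2 difference of 0.07 (95% interval -0.24 to 0.37, limma adjusted p = 0.77). That interval allows changes of either sign, and with samples centred on their medians the difference was 0.33 (limma adjusted p = 0.0452), as it was after the GC and length correction (limma adjusted p = 0.0278). For YFP- against unstimulated samples the log2 difference was -0.31 (limma adjusted p = 0.0822), and it was called under 10 of 19 alternative settings, such as trimmed-mean scaling (-0.42, limma adjusted p = 0.00655).

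Itgb2 encodes the β2 chain, without which none of the CD11 subunits reaches the cell surface, and lies on chromosome 10 at 77530252 to 77565708 (plus strand). It had 196, 169, 157 and 154 CPM in unstimulated samples f2, m2, m3 and m4. Values in YFP- samples were 304, 579, 190 and 432 CPM, and in YFP+ samples 594, 420, 103 and 120 CPM. The YFP+ samples fell apart into f2 and m2, above every unstimulated sample, and m3 and m4, below every unstimulated sample. The highest value was 1.27 times the lowest in the unstimulated group, 3.04 times in the YFP- group and 5.75 times in the YFP+ group. In the fit of all 12 samples no comparison was called: the log2 difference was -0.56 for YFP+ against YFP- (95% interval -1.62 to 0.51, limma adjusted p = 0.457), 1.04 for YFP- against unstimulated (limma adjusted p = 0.0927) and 0.49 for YFP+ against unstimulated (limma adjusted p = 0.413). The YFP- against unstimulated difference was called in 5 of 19 alternative settings, among them a fit of only the 8 samples compared (1.04, limma adjusted p = 0.00341), sample weights (1.09, limma adjusted p = 0.0107) and m3 left out of every group (1.30, limma adjusted p = 0.0434). YFP+ against unstimulated was called with sample weights (1.02, limma adjusted p = 0.0176).

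The share of rRNA-like reads moved with this spread among the stimulated samples. In the YFP+ group the libraries f2 and m2, with 594 and 420 CPM of Itgb2, had 13.7 and 16.3% of their reads on rRNA-like features, and m4 and m3, with 120 and 103 CPM, had 23.1 and 29.8%. In the YFP- group m2 had 579 CPM at 15.9%, f2 304 CPM at 18.7%, m4 432 CPM at 20.0% and m3 190 CPM at 30.3%. All 4 unstimulated libraries had 27.4% or more and 196 CPM or less. Leaving rRNA-like features out of the totals did not lead to a call for Itgb2 in any comparison. The labels give a minimum RNA integrity for the RNA used and no value per sample. The part of RNA or library quality in the levels of Itgb2 was not tested.

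**Figure D2:**
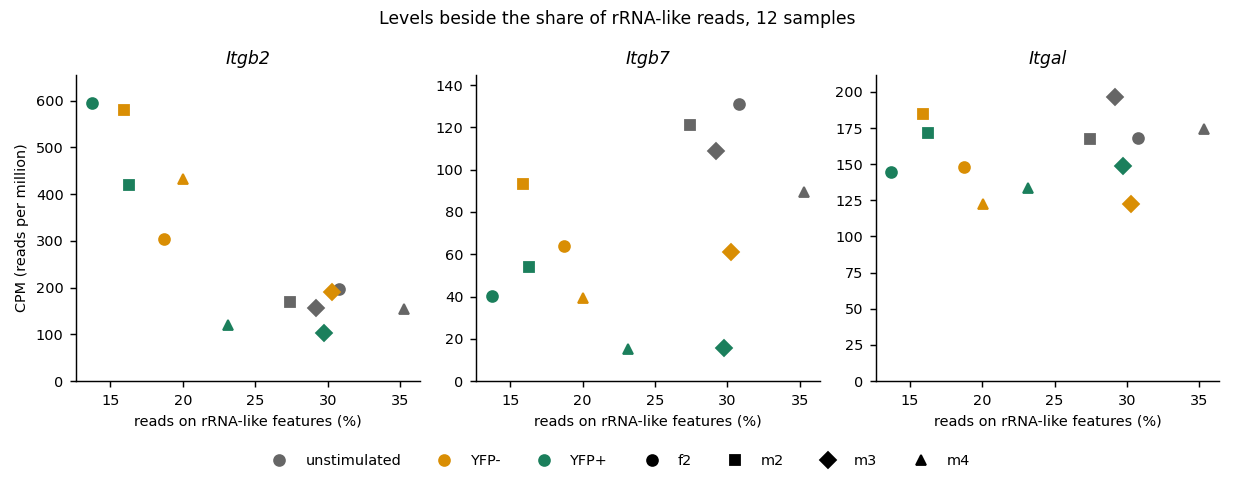
CPM of Itgb2, Itgb7 and Itgal (vertical axes) against the percentage of reads on rRNA-like features (horizontal axes) in the 12 samples, coloured by group and shaped by label. Among the 8 stimulated samples Itgb2 reaches 304 CPM or more only where the share is 20.0% or less, and Itgal stays between 122 and 185 CPM in them.

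Itgam and Itgax lie next to each other on chromosome 7, with 11.1 kb between them, at 128062640 to 128118491 and 128129547 to 128150657 (both plus strand), and Itgad, which encodes another β2 partner, starts 3.72 kb after Itgax. RefSeq (GRCm38.p6) gave a promoter window for 7 members: Itgam, Itgax, Itga1, Itga2, Itga4, Itgb1 and Itgb7. The 250 bases before the start are given for Itgax, which was lower in YFP+ samples than in both other groups, at chr7:128129300-128129549 (plus strand). Capitals in this and the following promoters mark matches, on either strand, to the motifs GGAAGT (ETS), TGTGGT (RUNX), TCACACC (T-box), TTCAAAG (TCF/LEF), TGANTCA (AP-1) and GGGCGG (SP/KLF), none of which overlapped another in the promoters shown.
Itgax: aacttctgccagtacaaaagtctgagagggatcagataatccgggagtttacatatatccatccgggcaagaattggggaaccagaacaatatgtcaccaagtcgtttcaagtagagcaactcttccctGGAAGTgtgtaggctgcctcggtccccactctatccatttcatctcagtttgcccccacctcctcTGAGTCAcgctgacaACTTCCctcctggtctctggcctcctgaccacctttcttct
The Itgax window held 2 ETS matches and 1 AP-1 match, the latter 56 to 50 bases before the start. Of 32851 windows of this length, 19.7% held the ETS motif and 6.75% the AP-1 motif. A match is a run of letters and not a measured binding site.

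Itgax had 38.3, 37.4, 35.9 and 46.5 CPM in unstimulated samples f2, m2, m3 and m4. The YFP- samples had 42.3, 47.7, 30.7 and 35.4 CPM, within reach of the unstimulated ones. The YFP+ samples had 22.0, 21.8, 19.7 and 20.5 CPM, the narrowest spread of Itgax in any group and below every other sample. It was lower in YFP+ than in YFP- samples (log2 difference -0.87, SE 0.15, limma adjusted p = 0.000926) and than in unstimulated samples (-0.91, limma adjusted p = 0.000117), and both calls held in all 19 alternative settings. Between YFP- and unstimulated samples the log2 difference was -0.03 (95% interval -0.35 to 0.29, limma adjusted p = 0.876).

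Itgam showed a different order. It was at 7.40, 6.998, 5.10 and 7.83 CPM in unstimulated samples f2, m2, m3 and m4. The YFP- samples had 3.05, 4.66, 2.53 and 2.53 CPM, all below the unstimulated samples. The YFP+ samples had 2.02, 3.45, 0.967 and 2.40 CPM and overlapped with the YFP- samples. Itgam was 2.18-fold lower in YFP- than in unstimulated samples (log2 difference -1.12, SE 0.33, limma adjusted p = 0.0125) and 3.35-fold lower in YFP+ than in unstimulated samples (-1.74, limma adjusted p = 0.000466). The first of these calls was lost without f2 (limma adjusted p = 0.0665), without m4 (limma adjusted p = 0.101) or with no filter on low values (limma adjusted p = 0.0977). The YFP+ against YFP- difference of -0.62 was not past the threshold (95% interval -1.34 to 0.10, limma adjusted p = 0.208). In the GENCODE M21 annotation a predicted gene, Gm49368, shares 3450 exon bases with Itgam, 68.7% of its exon length, and was listed with 0 to 3 reads. How reads in the shared exons were counted is not given in the sources used here, so the level of Itgam is uncertain.

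Taken as shares of the 4 α subunits that pair with β2, per kilobase, Itgal made up 73.2% of the unstimulated total, 71.0% of the YFP- total and 82.2% of the YFP+ total. Itgax made up 22.4, 26.3 and 15.9%, and Itgam 3.72, 2.02 and 1.57%. Itgad made up less than 1% on average in each group. The Itgax share was 14.4 to 16.9% in the 4 YFP+ samples and 19.4% or more in each of the other 8.

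Both Itgam and Itgax are also transcribed in macrophages, granulocytes and dendritic cells, and markers of those cells were looked at beside them. All 12 markers of monocytes, macrophages and granulocytes were in the table, and their summed level was 53.4 to 61.8 CPM in unstimulated, 27.5 to 44.9 CPM in YFP- and 14.8 to 24.3 CPM in YFP+ samples. Cd68, which encodes a lysosomal protein, made up most of it, with means of 55.3, 34.6 and 17.8 CPM. S100a9 was at 0 reads in all 12 samples, Adgre1, which encodes F4/80, reached at most 0.0308 CPM, and Lyz2 at most 0.803 CPM. The 7 dendritic cell markers summed to 2.49 to 4.13 CPM in unstimulated, 26.4 to 45.1 CPM in YFP- and 22.2 to 32.0 CPM in YFP+ samples. In the stimulated groups this was mainly the transcription factors Zbtb46 (means 1.57, 15.6 and 8.84 CPM over the 3 groups) and Batf3 (0.326, 13.8 and 15.6 CPM). Xcr1 had means of 1.54, 4.78 and 1.82 CPM, as high as Zbtb46 in unstimulated samples. Siglech, Clec9a, Flt3 and Cd209a reached at most 0.0608, 0.123, 0.184 and 0.370 CPM. The part of these lists in the Itgam and Itgax levels was not tested.

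The genes for the collagen-binding subunits α1 and α2 are neighbours on chromosome 13, at 114953096 to 115101964 for Itga1 and 114833081 to 114932100 for Itga2 (both minus strand), with 20995 bases between them. Both were lower in both stimulated groups than in the unstimulated group. So were Itgam and Itgb1, and between YFP+ and YFP- samples Itga1 was called and Itga2 was not. The promoter windows of Itga1 and Itga2, at chr13:115101965-115102214 and chr13:114932101-114932350 (minus strand), are shown.
Itga1: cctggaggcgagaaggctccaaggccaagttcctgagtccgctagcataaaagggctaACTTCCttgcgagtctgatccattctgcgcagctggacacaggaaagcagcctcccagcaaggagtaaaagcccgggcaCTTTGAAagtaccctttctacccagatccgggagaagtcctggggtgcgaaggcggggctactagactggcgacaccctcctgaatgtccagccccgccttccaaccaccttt
Itga2: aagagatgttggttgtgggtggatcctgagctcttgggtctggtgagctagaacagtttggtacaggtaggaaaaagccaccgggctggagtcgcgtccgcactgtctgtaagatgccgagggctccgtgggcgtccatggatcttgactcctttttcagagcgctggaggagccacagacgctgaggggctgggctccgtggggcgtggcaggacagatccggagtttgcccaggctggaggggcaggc
The Itga1 window held 1 ETS match and 1 TCF/LEF match, the latter a motif found in 4.46% of all windows. None of the 6 motifs was found in the Itga2 window.

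Itga1 had 24.2, 27.7, 25.1 and 28.7 CPM in unstimulated samples f2, m2, m3 and m4. It had 17.9, 19.6, 13.6 and 12.5 CPM in YFP- samples, and 7.54, 10.3, 10.7 and 7.87 CPM in YFP+ samples. The 3 groups formed 3 separate steps with no overlap. Itga1 was 1.69-fold lower in YFP- than in unstimulated samples (log2 difference -0.75, SE 0.17, limma adjusted p = 0.00272) and 2.93-fold lower in YFP+ than in unstimulated samples (-1.55, limma adjusted p = 4.25e-06). It was 1.74-fold lower in YFP+ than in YFP- samples (-0.80, limma adjusted p = 0.00526), a call lost without the samples labelled f2 (-0.65, limma adjusted p = 0.0549). Another gene, Gm49395, shares 3.68% of its exon length and had 2 to 19 reads, against 253 or more for Itga1.

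Itga2 had 5.27, 8.47, 8.91 and 8.38 CPM in unstimulated samples f2, m2, m3 and m4, f2 being the lowest. It had 3.86, 5.13, 3.29 and 3.59 CPM in YFP- samples, and 3.88, 2.84, 4.25 and 1.80 CPM in YFP+ samples. Both stimulated groups lay below the unstimulated group and overlapped with each other. The fall was 1.94-fold in YFP- against unstimulated samples (log2 difference -0.96, SE 0.27, limma adjusted p = 0.00934) and 2.50-fold in YFP+ against unstimulated samples (-1.32, limma adjusted p = 0.000774). The former was not called without the samples labelled m3 (-0.80, limma adjusted p = 0.0516) or with no filter (limma adjusted p = 0.0686). Between YFP+ and YFP- samples the log2 difference was -0.37 (95% interval -0.95 to 0.22, limma adjusted p = 0.365).

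Itgb1, on chromosome 8 at 128685654 to 128733200 (plus strand), encodes the β1 chain shared by these receptors. It had 146, 155, 139 and 162 CPM in unstimulated samples f2, m2, m3 and m4. YFP- samples had 118, 109, 114 and 91.3 CPM, and YFP+ samples had 63.8, 90.9, 110 and 97.9 CPM. All 8 stimulated samples lay below all 4 unstimulated samples, and YFP- and YFP+ samples overlapped. It was 1.40-fold lower in YFP- (log2 difference -0.48, SE 0.16, limma adjusted p = 0.0189) and 1.69-fold lower in YFP+ samples (-0.76, limma adjusted p = 0.000798) than in unstimulated ones. The YFP- call was lost without m2 (limma adjusted p = 0.0892), without m4 (limma adjusted p = 0.146) or with no filter (limma adjusted p = 0.0971). YFP+ and YFP- samples differed by -0.27 (95% interval -0.61 to 0.06, limma adjusted p = 0.233).

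Itga4 was the only one of the 10 called in opposite directions between comparisons, higher in YFP- and lower in YFP+ samples than in unstimulated samples. It lies on chromosome 2 at 79255426 to 79333123 (plus strand), and its promoter window is at chr2:79255176-79255425.
Itga4: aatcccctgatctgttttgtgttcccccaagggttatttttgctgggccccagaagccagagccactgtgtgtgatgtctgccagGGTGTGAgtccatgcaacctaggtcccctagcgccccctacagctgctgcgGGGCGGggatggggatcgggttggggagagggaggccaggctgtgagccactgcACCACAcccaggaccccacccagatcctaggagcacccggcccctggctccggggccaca
This window held 1 T-box, 1 SP/KLF and 1 RUNX match, and of all windows 3.33% held the T-box motif, 32.7% the SP/KLF motif and 14.0% the RUNX motif.

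The level of Itga4 was 17.8, 20.3, 23.2 and 21.8 CPM in unstimulated samples f2, m2, m3 and m4. YFP- samples had 30.2, 32.5, 25.8 and 27.9 CPM, all above the unstimulated samples. YFP+ samples had 12.1, 13.8, 10.2 and 11.3 CPM, all below them. Itga4 was 2.47-fold lower in YFP+ than in YFP- samples (log2 difference -1.30, SE 0.14, limma adjusted p = 3.98e-05), and this call held in all 19 alternative settings. It was 1.76-fold lower in YFP+ than in unstimulated samples (-0.81, limma adjusted p = 0.000176). The rise in YFP- against unstimulated samples was 1.40-fold (0.49, limma adjusted p = 0.00956), and was not called without f2 (0.40, limma adjusted p = 0.0757) or without m2 (0.42, limma adjusted p = 0.0673). Cerkl, on the opposite strand, shares 8.04% of the Itga4 exon length and had 20 to 116 reads, against 363 or more for Itga4, and whether counting used the strand is not given in the sources used here.

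Itgb7, on chromosome 15 at 102215995 to 102231944 (minus strand), encodes the β7 chain, which competes with β1 for α4. It had 131, 121, 109 and 89.4 CPM in unstimulated samples f2, m2, m3 and m4. YFP- samples had 63.9, 93.2, 60.9 and 39.4 CPM, and YFP+ samples had 40.0, 54.1, 15.6 and 15.2 CPM. YFP+ samples lay below all unstimulated samples but overlapped with YFP- samples, and m3 and m4 were the lowest of the YFP+ group, as they were for Itgb2. Itgb7 was 4.17-fold lower in YFP+ than in unstimulated samples (log2 difference -2.06, SE 0.38, limma adjusted p = 0.00032), called in all 19 alternative settings. The 2.30-fold lower level in YFP+ than in YFP- samples (-1.20, limma adjusted p = 0.0363) was called in 11 of 19 alternative settings, and was lost without f2 (limma adjusted p = 0.0679), without m3 (limma adjusted p = 0.170) or without m4 (limma adjusted p = 0.0819). YFP- against unstimulated samples gave -0.86 (limma adjusted p = 0.0719), with a call in 12 of 19 alternative settings. Within the YFP+ group Itgb7 was higher in f2 and m2, the libraries with the lower rRNA-like shares, than in m3 and m4. In the YFP- group m4, at 20.0%, had less Itgb7 than m3, at 30.3%. Unstimulated libraries had 27.4% or more and 89.4 CPM or more. The part of rRNA-like shares in the Itgb7 levels was not tested.

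Itgae, on chromosome 11 at 73090583 to 73147446 (plus strand), encodes αE and was barely transcribed. It had 0.393, 0.9996, 0.452 and 0.801 CPM in unstimulated samples f2, m2, m3 and m4. YFP- samples had 1.26, 1.46, 0.576 and 1.92 CPM, and YFP+ samples 0.490, 0.664, 0.525 and 0.467 CPM. These values rest on 15 to 94 reads per library, and all groups overlapped. Itgae exceeded a log2 CPM of 0 only in YFP- samples f2, m2 and m4 and in unstimulated sample m2, the fewest the filter allows. It was therefore tested mainly through the group where it is high, and its differences with YFP- samples are not independent of the filter. No comparison was called: the log2 difference was -1.15 for YFP+ against YFP- (limma adjusted p = 0.0596), 0.95 for YFP- against unstimulated (limma adjusted p = 0.0677) and -0.21 for YFP+ against unstimulated (limma adjusted p = 0.685). The first and the second were each called in 5 of 18 alternative settings. Without the samples labelled m3 they were -1.49 and 1.15 (limma adjusted p = 0.0288 and 0.0368), and with log2 of CPM plus 1 they were -0.55 and 0.45 (limma adjusted p = 0.0399 and 0.0461).

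**Figure D3:**
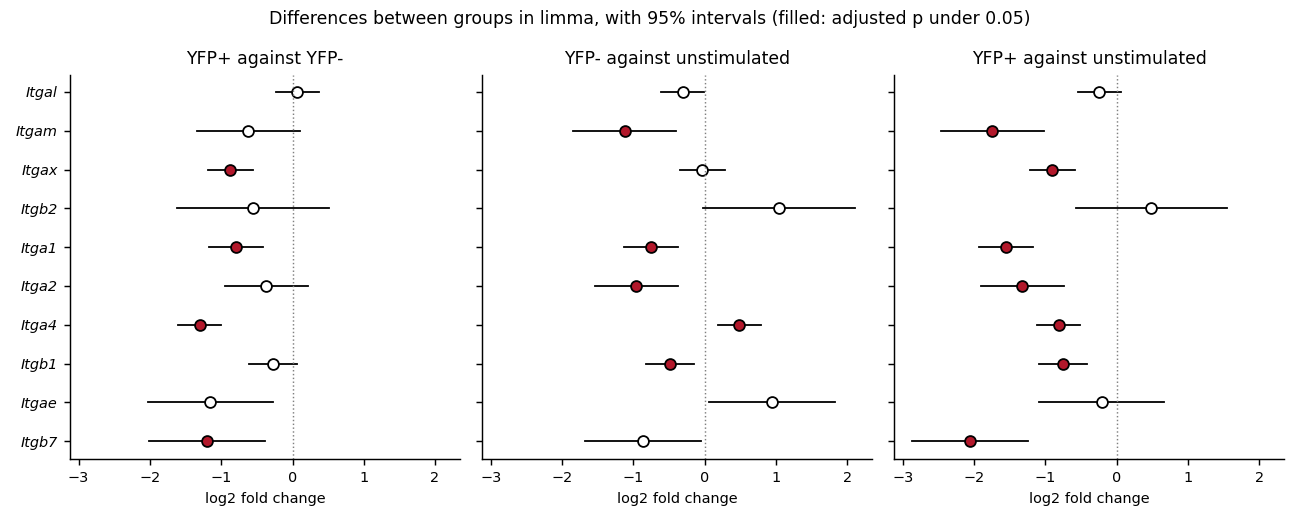
Log2 fold changes of the 10 transcripts in the 3 comparisons, with bars for 95% intervals from limma. Filled points have an adjusted p under 0.05, and they number 4, 5 and 7 from left to right, with Itga4 in the middle panel the only filled point above 0.

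Ratios of subunit transcripts within a sample do not depend on the library total. For 8 pairs of an α with a β subunit and for Itgb7 with Itgb1, in 3 comparisons, exact permutation tests (2-sided, 27 in all) were run, and with 4 against 4 samples the smallest p they can give is 0.0286. It was reached by 2 pairs for YFP+ against YFP-, by 6 for YFP- against unstimulated and by 5 for YFP+ against unstimulated. After adjustment over the 27 tests none was past 0.05, and the smallest adjusted p in these exact permutation tests was 0.0593.

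Among these, the ratio of Itga4 to Itgb1 had a mean log2 of -2.86 ± 0.20 without stimulation, -1.89 ± 0.20 in YFP- samples and -2.92 ± 0.45 in YFP+ samples (SD, n = 4). All 4 YFP- samples lay above all other samples. The ratio of Itga1 to Itgb1 was -2.51 ± 0.06, -2.78 ± 0.25 and -3.30 ± 0.25 in the same order, and the YFP+ samples were below all others. Itga4 to Itgb7 was -2.43 ± 0.37, -1.08 ± 0.43 and -1.19 ± 0.78, and all 8 stimulated samples lay above all 4 unstimulated ones. Itgal to Itgb2 was 0.07 ± 0.24, -1.28 ± 0.55 and -0.66 ± 1.21, and the YFP+ samples spanned the values of both other groups. Shares of the 3 α subunits that pair with β1 among these genes were taken per kilobase. In unstimulated, YFP- and YFP+ samples Itga4 made up 37.2, 59.9 and 47.8%, Itga1 35.8, 24.3 and 27.5%, and Itga2 26.98, 15.8 and 24.8% on average. The Itga4 share ran from 38.3 to 54.4% in YFP+ samples and overlapped with the 35.2 to 39.0% of unstimulated samples. The Itga2 share ran from 17.0 to 31.4% in YFP+ samples and overlapped with both other groups.

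**Figure D4:**
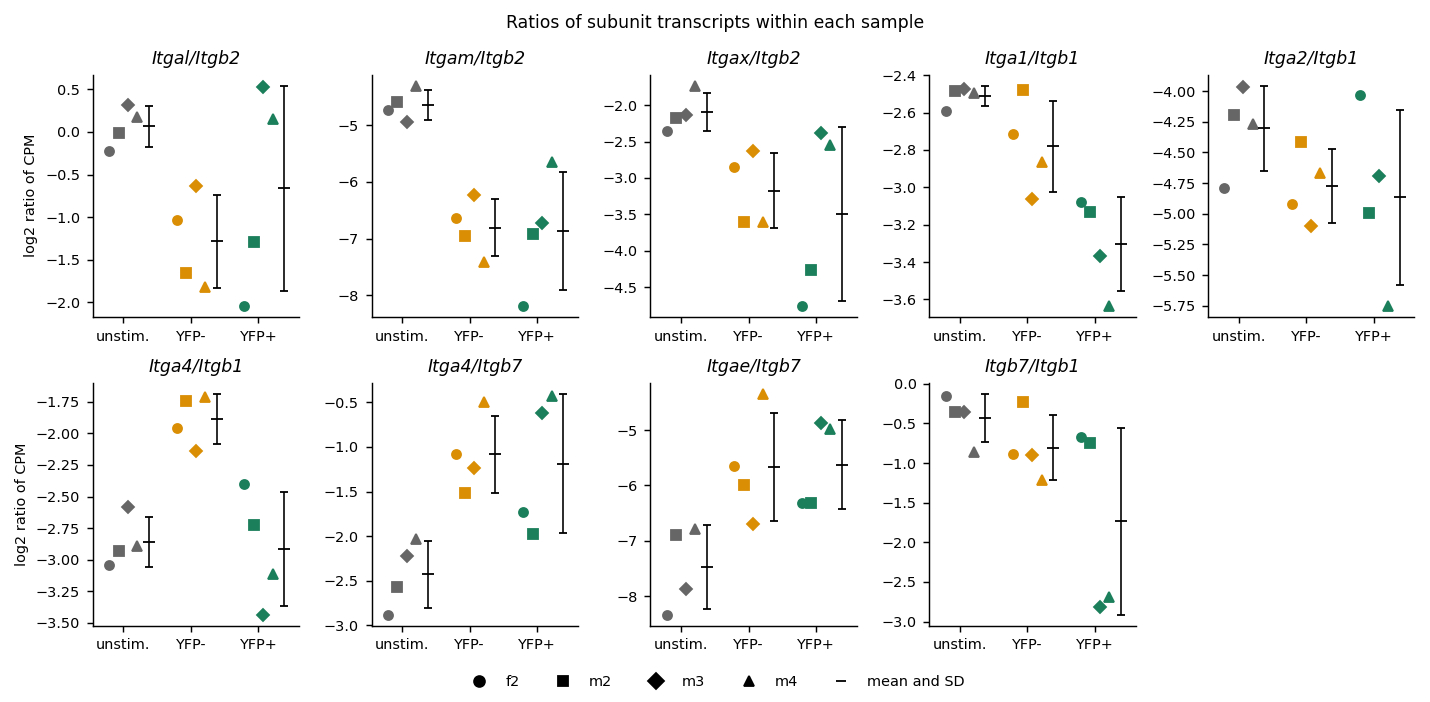
Log2 ratios of CPM for 9 pairs of subunit transcripts in each sample, with the mean and SD (n = 4) of each group. The Itga4 to Itgb1 ratio is highest in the 4 YFP- samples. Ratios of Itgal, Itgax and Itgam to Itgb2 in the YFP+ group are lower in f2 and m2 than in m3 and m4. For Itgam the values of m2 and m3 are close (-6.92 and -6.72).

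Of 16 other integrin subunits, 6 were abundant enough to be tested. Itgav, which encodes the αv subunit of vitronectin receptors, had means of 17.7 CPM in unstimulated, 50.0 CPM in YFP- and 85.7 CPM in YFP+ samples. Its possible partner Itgb3 went the other way, with 59.6, 33.9 and 8.88 CPM. Both were called in all 3 comparisons: for YFP+ against YFP- the log2 difference was 0.76 for Itgav (limma adjusted p = 0.0023) and -1.94 for Itgb3 (limma adjusted p = 1.01e-05). Itga3, a laminin-binding α subunit, was 2.22, 3.13 and 6.49 CPM and was higher in YFP+ than in YFP- samples (log2 difference 1.099, limma adjusted p = 0.0105), and the laminin receptor subunit Itga6 was 6.53, 3.30 and 1.78 CPM and was lower (-0.91, limma adjusted p = 0.00984). Itga5, the fibronectin receptor subunit, was 10.6, 8.41 and 12.7 CPM and was higher in YFP+ than in YFP- samples (0.60, limma adjusted p = 0.0128). Itgb4 was 2.12, 0.478 and 0.370 CPM and was called lower in both stimulated groups than in unstimulated samples. In all, 5, 4 and 5 of the 6 were called for YFP+ against YFP-, YFP- against unstimulated and YFP+ against unstimulated. Of those called, 3, 1 and 2 were higher. Over all genes 21.8, 51.1 and 60.8% were called in the same order. The median log2 differences of the 6 were 0.11, -0.59 and -0.83, beside -0.19, 0.14 and -0.03 over all genes.

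**Figure D5:**
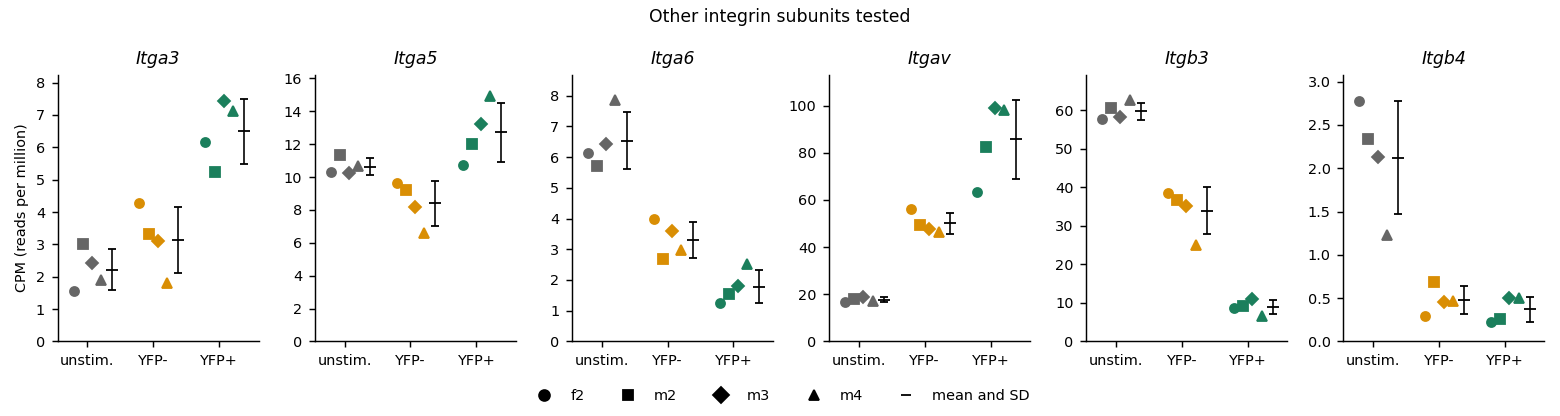
CPM of the 6 other integrin subunits tested, by sample, with the mean and SD (n = 4) of each group. The mean of Itgav goes from 17.7 to 50.0 and 85.7 CPM over unstimulated, YFP- and YFP+ samples, and that of Itgb3 from 59.6 to 33.9 and 8.88 CPM.

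Genes that act on integrins from inside the cell (activators, adaptors and inhibitors) were represented by 34 tested of 42 listed. For YFP+ against YFP- samples, 1 of the 34 was higher and 10 were lower, with a median log2 difference of -0.40 beside -0.19 over all genes. For YFP- against unstimulated samples, 8 were higher and 10 lower (median -0.03 beside 0.14). For YFP+ against unstimulated samples, 5 were higher and 16 lower (median -0.44 beside -0.03). In this order of comparisons 32.4, 52.9 and 61.8% of the 34 were called, against 21.8, 51.1 and 60.8% of all genes. The shares in both comparisons with unstimulated samples were thus near those of all genes. Those called lower in all 3 comparisons included the exchange factors Rasgrp1, which acts mainly on Ras, and Rasgrp2, which activates Rap1. Over unstimulated, YFP- and YFP+ samples Rasgrp1 had means of 47.5, 21.1 and 8.53 CPM, and Rasgrp2 had 8.02, 1.22 and 0.463 CPM. Skap1, an adaptor of the inside-out pathway to LFA-1, had 305, 106 and 45.1 CPM. Sipa1 and Rap1gap2, which inactivate Rap1, had 84.0, 22.6 and 13.9 CPM and 5.13, 1.79 and 0.307 CPM. Higher genes included Vcl (vinculin), with 0.902, 1.35 and 3.01 CPM, and Parvg (γ-parvin), with 75.7, 231 and 225 CPM, the latter called higher in both stimulated groups than in unstimulated samples.

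Ligands of these integrins were tested for 9 of 22 listed genes. Icam1, whose product binds LFA-1 and Mac-1, had means of 25.7 CPM in unstimulated, 269 CPM in YFP- and 63.9 CPM in YFP+ samples, and was lower in YFP+ than in YFP- samples (log2 difference -2.42, limma adjusted p = 0.003). Icam2 had 26.6, 28.0 and 17.8 CPM and was lower in YFP+ than in both other groups. Of the 9, 1 was higher and 3 were lower for YFP+ against YFP-, 4 were higher and none lower for YFP- against unstimulated, and 4 were higher and 2 lower for YFP+ against unstimulated. Of 14 tested adhesion receptors of other families, 1, 7 and 6 were higher and 6, 1 and 5 lower in the same order of comparisons. Called genes were 44.4, 44.4 and 66.7% of the ligands and 50.0, 57.1 and 78.6% of the adhesion receptors. Of all genes 21.8, 51.1 and 60.8% were called. The median log2 differences in that order were -0.43, 0.34 and 0.43 for the ligands and -0.35, 0.49 and 0.08 for the adhesion receptors, beside -0.19, 0.14 and -0.03 over all genes. Selplg, the selectin ligand PSGL-1, had 1013, 277 and 94.5 CPM, and Cd226 (DNAM-1), which associates with LFA-1, 12.9, 6.83 and 0.737 CPM. The tetraspanin Cd63 had 12.0, 162 and 215 CPM.

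By Pearson correlation of log2 CPM over the 12 samples, which share groups and library effects, the 2 protein-coding genes most like each member were found among 10210. These correlations are descriptions. They were Copa (r = 0.951) and Uba1 for Itgal, Sytl1 (0.963) and Emid1 for Itgam, Ets1 (0.974) and Abtb1 for Itgax, and Hspa2 (0.991) and Lztr1 for Itgb2. They were Borcs8 (0.989) and Spata13 for Itga1, Gstm4 (0.974) and Helb for Itga2, Tcf7 (0.977) and Plgrkt for Itga4, and Smim19 (0.968) and Cmtm6 for Itgb1. Adam17 (0.888) and Ddx6 were nearest to Itgae, and Ctsd (0.990) and Trp53i11 to Itgb7. Among the members themselves, the pair with the highest value was Itga1 and Itgb1 (0.896), and Itgb2 had values between -0.60 (with Itgb1) and 0.49 (with Itgae).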

How the data were processed

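Double-stranded cDNA had been made from 10 ng of total RNA with a SMARTer Ultra Low kit and read as paired ends on a NovaSeq, per the labels' protocols. The submitters' processing notes name bcl2fastq, STAR 2.7.9a, Subread featureCounts 2.0.3 and GRCm38. The annotation release and strand setting are not given in the sources used here. Moderated log2 CPM for 12 samples were deposited by the authors in 1 table, in which 0 per-sample columns belonged to no sample. Repeated lines (287 of 55774) were removed. The deposited log2 CPM follow a formula with a prior of 0.5 reads (largest difference 5.15e-14), so whole reads and totals were recovered (100% of values within 0.001 of a whole number).

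Samples were grouped by the labels, with 4 per group. The 12364 genes that exceeded a log2 CPM of 0 in 4 or more samples were fitted in limma 3.58.1 (R 4.3.3) with 1 coefficient per group and eBayes with an intensity trend. This fit of log2 values is the main test, and the recovered reads were used in trimmed-mean scaling and voom. The fit was also run on simulated reads, in which some genes were raised or lowered in the YFP+ group only. The simulated scatter was set alike for all genes and libraries did not differ in quality. That run therefore does not test the fit under the spread and shifts of these samples. Ratios were tested by exact permutation in Python 3.11.15 with scipy 1.17.1, and levels per kb use exon lengths of GENCODE M21 on GRCm38. Floors of 3 reads cover counting error only, since no molecular identifiers are named.

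The members, the gene lists (other integrin subunits, activators and adaptors, ligands, other adhesion receptors, and markers of NK, T, B, myeloid, dendritic, erythroid and mast cells) and the tests were chosen with earlier results of these data known. Named genes are the 10 members, each other integrin subunit tested, per list and comparison up to 3 called genes with the largest rise and 3 with the largest fall, from which examples are given, and the 2 genes most like each member. The markers named, and the pair of members with the highest correlation, were chosen after their values were seen. Over the 12 samples the marker lists of T cells and of B cells summed to 92.3 to 168 and 0.718 to 4.50 CPM. Those of erythroid cells and platelets, and of mast cells and basophils, summed to 0 to 0.577 and 9.48 to 27.8 CPM. The NK cell list summed to 18681 to 42427 CPM. Lat, Cd3g and Cd3d made up nearly all of the T cell sum, and each other T cell marker reached at most 1.97 CPM. Mcpt8 made up most of the mast cell and basophil sum, and each other marker there reached at most 2.34 CPM. Alternatives were a replicate block, only the 8 samples compared, no filter or a higher one (log2 CPM over 2), log2 of CPM plus 1, quantile normalization, trimmed-mean scaling, centring, totals without 359 rRNA-like features, voom weights, sample weights, no trend, and leaving out each label. A GC and length correction, with and without the block, and trimmed-mean scaling with the block were added after the data were seen.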

Additional observations from a re-analysis of the deposited data

Results flagged for a closer look

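Of 81 sets of 4 values examined, 1 held a sample far from the others, where chance alone would give about 4.05. In the unstimulated group, sample f2 had a log2 CPM of 2.40 for Itga2, below the 3.07 to 3.16 of the other 3 samples. The gap was 0.884 of the group's whole range, above Dixon's 95% critical value for 4 values.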

How the results depend on the processing

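No call of a member changed sign in any alternative. Of 30 member differences, 16 stayed on the same side of the threshold in each alternative, and of 567 values 19 lost and 43 gained a call. For YFP+ against YFP-, 2691 genes were called, 1583 with no filter and 1571 to 2178 with a label left out (1571 without m2, 1643 without m4). The members called there were 4, and 2 to 4 with a label left out. For YFP- against unstimulated, 5 members were called, 2 with no filter, 9 with sample weights and 3 to 6 with a label left out. For YFP+ against unstimulated, 7 or 8 members were called in each alternative. For the ratios, the smallest p an exact test can give is 0.1 with 3 against 3 samples and 0.125 for sign flips of 4 pairs. No ratio could therefore pass with a label left out or with the replicate block, and these runs do not test the ratios. Under the only other alternative run for ratios, with a constant added to CPM, passing was possible and no ratio passed. Itgae had no value under the filter at log2 CPM above 2.

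Samples with the same label were not shown to be pairs: correlations of their deviations from the group means were -0.06 to 0.38, over 0.1 in 6 of 12, and highest for the own label in 6 of 12. Between YFP- and YFP+ samples they averaged 0.24 and were over 0.1 for m2, m3 and m4 but not for f2 (0.05). Between unstimulated samples and the YFP- or YFP+ group they averaged 0.03 and 0.14. With the replicate label as a block, 3098, 6682 and 7774 genes and 5, 8 and 7 members were called for YFP+ against YFP-, YFP- against unstimulated and YFP+ against unstimulated. The members that gained a call with the block were Itgae for YFP+ against YFP- (limma adjusted p = 0.0399), and Itgb2 (0.0364), Itgae (0.0478) and Itgb7 (0.00947) for YFP- against unstimulated (limma adjusted p in brackets). With a GC and length correction and the block, 8 members were called for YFP- against unstimulated. Levels of Itgae, at 15 to 94 reads, are limited by depth, and it passed the filter mainly through YFP- samples.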
